A study of Mus musculus with 12 samples.

Results

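The genes described here are 38 genes of the cell cycle, 15 that act in DNA replication during S phase and 23 that act in mitosis, followed across 3 populations of mouse bone progenitors sorted with and without induction of the transcription factor JUN. They were chosen by name as genes of the cell cycle, with earlier results of these data known. Each was read from the probe set with the highest mean over the 12 arrays among the probe sets annotated to that gene alone. Such a probe set was found for 36 of the 38 genes, and the S phase gene Chaf1a and the mitosis gene Ccnb1 were not analysed here. Of the 36, Tyms did not pass the filter on dim probe sets, which left 35 members, 13 of S phase and 22 of mitosis, among the 12516 genes tested.

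All animals are described as JUN inducible mice, and pups were induced through doxycycline given in the drinking water of their mothers. After 2 days the cells of limb bones, skull cap, scapula, vertebrae and ribs were sorted by flow cytometry into 3 populations named SSC, CSP and Thy. Each population gave 2 arrays labelled JUN and 2 arrays labelled -JUN, read here as the arm without induction, so there were 6 groups of 2 arrays. The labels name 5 mice: mice 4 and 7 gave all JUN arrays, mouse 3 gave a -JUN array of each population, mouse 3b gave the other -JUN arrays of CSP and Thy, and mouse 10 gave the other -JUN array of SSC. Whether -JUN animals lacked the inducible allele or the doxycycline, which promoter drives it, the genetic background and the exact age are not stated in the labels.

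All values are RMA values on the log2 scale, on which a difference of 1 is a doubling, and a difference is called here when its limma p-value, adjusted by Benjamini-Hochberg over all 12516 genes, is under 0.05. The pairwise correlation of the 12 arrays over all probe sets lay between 0.872 and 0.979. Thy1, the marker of the Thy sort, differed by -4.70 ± 0.34 in SSC minus Thy and by -4.51 ± 0.34 in CSP minus Thy (SE, adjusted p = 0.000108 and 7.69e-05, and 0.0832 for SSC minus Thy with the level of the poly-A control probe sets in the model). Eng, which encodes CD105, differed by -1.57 ± 0.24 in SSC minus CSP (adjusted p = 0.0132), a call that was lost with the mouse as a block (adjusted p = 0.122). Jun itself did not differ between the arms beyond the spread of the arrays: the difference of JUN minus -JUN was 0.32 ± 0.41 in SSC, -0.43 ± 0.41 in CSP and -0.27 ± 0.41 in Thy (SE, 2 arrays against 2). The arrays therefore did not show the induction by the level of Jun, and the arms are named by their labels throughout. Xist, a transcript of cells with an inactive X chromosome, lay between 12.49 and 13.20 on the 3 arrays of mouse 3 and at most at 7.29 on the other 9. It was thus high on an array of each -JUN group and on no JUN array, so the arms were not balanced in it.

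Before a cell copies its DNA, the 6 proteins Mcm2 to Mcm7 are loaded onto chromatin as an inactive ring with the help of Cdc6, a step called licensing. At the start of S phase the ring is joined by Cdc45 and the GINS complex, becomes the replicative helicase, and is followed by the polymerase clamp Pcna, while ribonucleotide reductase and thymidylate synthase supply the nucleotides. Most of these genes are known targets of E2F factors, which the RB family holds back in resting cells. Mitosis genes are transcribed later, in G2, through Foxm1 and B-Myb. In resting cells the DREAM complex holds them back at a promoter element called CHR, often found beside CCAAT boxes. The products of the mitosis genes condense and hold chromosomes, build the spindle, watch over chromosome attachment and mark cyclins for destruction.

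This division of the 2 gene sets could be read in their promoters. RefSeq windows (250 bases before to 50 after each start, build GRCm38.p6) were available for 13 of the 15 S phase genes, as 15 windows, and for 18 of the 23 mitosis genes, as 19 windows, and were searched on both strands. The E2F letters TTTCCCGC, TTTCGCGC, TTTGCCGC or TTTGGCGC stood in 6 of the 15 S phase windows (40.0%) and in 1 of the 19 mitosis windows (5.26%), against 2.26% of all 32851 windows. The CHR letters TTTGAA stood in 2 of the 15 S phase windows (13.3%) and in 14 of the 19 mitosis windows (73.7%), against 17.9% of all windows. CCAAT stood in 13 of the 15 S phase windows and in 17 of the 19 mitosis windows, against 37.4% of all windows. The AP-1 letters TGACTCA and TGAGTCA, which are each other's opposite strand and are the classic site of JUN dimers, stood in 0 of the 15 and 0 of the 19 windows, against 5.20% of all windows. A match or its absence describes the letters of these windows and shows no binding.

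The windows of Mcm3, Mcm6, Plk1 and Ccnb2 are printed 5′ to 3′ on the strand of the gene. Mcm3 and Mcm6 are examples of S phase genes with E2F letters, and Plk1 and Ccnb2 of mitosis genes with CHR and CCAAT letters. Mcm2 and Rrm2, whose SSC arrays below also lay under all others, had 0 E2F matches in their windows. Capitals mark the E2F letters in the first pair (2 matches in Mcm3 and 3 in Mcm6, of which 2 overlap), and the CHR and CCAAT letters in the second pair (1 of each in Plk1, and 2 CHR and 3 CCAAT matches in Ccnb2).
Mcm3 (chr1:20820263-20820562, minus strand): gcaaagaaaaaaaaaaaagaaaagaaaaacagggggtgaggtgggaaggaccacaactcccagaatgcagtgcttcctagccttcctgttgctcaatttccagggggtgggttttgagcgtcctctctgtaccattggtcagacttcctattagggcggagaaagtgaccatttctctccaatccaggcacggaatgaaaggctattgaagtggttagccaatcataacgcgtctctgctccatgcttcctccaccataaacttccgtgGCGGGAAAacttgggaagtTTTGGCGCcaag
Mcm6 (chr1:128359656-128359955, minus strand): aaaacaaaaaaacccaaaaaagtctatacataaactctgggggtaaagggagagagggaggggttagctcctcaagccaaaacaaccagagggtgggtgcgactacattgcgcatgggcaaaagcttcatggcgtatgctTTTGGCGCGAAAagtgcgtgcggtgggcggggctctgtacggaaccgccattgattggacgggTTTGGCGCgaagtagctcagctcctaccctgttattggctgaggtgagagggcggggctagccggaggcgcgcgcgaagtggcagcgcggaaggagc
Plk1 (chr7:122159185-122159484, plus strand): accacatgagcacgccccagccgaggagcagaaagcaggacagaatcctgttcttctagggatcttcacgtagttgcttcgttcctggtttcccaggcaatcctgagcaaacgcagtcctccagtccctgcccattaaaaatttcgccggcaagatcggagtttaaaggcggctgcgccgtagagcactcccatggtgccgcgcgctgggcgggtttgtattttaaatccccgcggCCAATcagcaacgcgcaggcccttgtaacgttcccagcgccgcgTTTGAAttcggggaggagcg
Ccnb2 (chr9:70421505-70421804, minus strand): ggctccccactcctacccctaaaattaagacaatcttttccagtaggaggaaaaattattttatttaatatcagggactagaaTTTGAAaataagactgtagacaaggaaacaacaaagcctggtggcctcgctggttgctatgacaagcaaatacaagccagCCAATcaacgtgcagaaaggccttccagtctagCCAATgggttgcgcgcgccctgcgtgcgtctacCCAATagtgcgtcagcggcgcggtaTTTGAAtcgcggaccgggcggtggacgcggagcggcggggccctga

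The mean of the S phase genes was lower on every SSC array than on every CSP and Thy array. Over the 14 genes with a probe set it was 10.60 and 10.56 on the SSC JUN arrays and 10.68 and 10.47 on the SSC -JUN arrays. In CSP it was 10.97 and 11.23 with JUN and 10.94 and 10.84 without. In Thy it was 10.82 and 11.20 with JUN and 11.28 and 10.95 without. The highest SSC array thus lay below the lowest array of either other population, while CSP and Thy overlapped. The population means were 10.57 ± 0.08 in SSC, 10.99 ± 0.16 in CSP and 11.07 ± 0.22 in Thy (SD, n = 4 each), which makes SSC minus CSP -0.42 and SSC minus Thy -0.49, and CSP minus Thy -0.07. No p-value is given for this mean, because its genes were picked by name with earlier results of these data known. In bulk RNA, fewer cells in S phase and less RNA of these genes per cell cannot be told apart.

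The mean of the 22 mitosis genes did not separate the populations in this way. It was 10.09 and 10.39 on the SSC JUN arrays and 10.11 and 10.41 on the SSC -JUN arrays. The CSP arrays had 10.45 and 10.35 with JUN and 10.11 and 10.26 without. The Thy arrays had 10.14 and 10.64 with JUN and 10.69 and 10.27 without. All 3 populations overlapped, and the differences of the population means were -0.04 for SSC minus CSP, -0.18 for SSC minus Thy and -0.14 for CSP minus Thy.

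**Figure D1:**
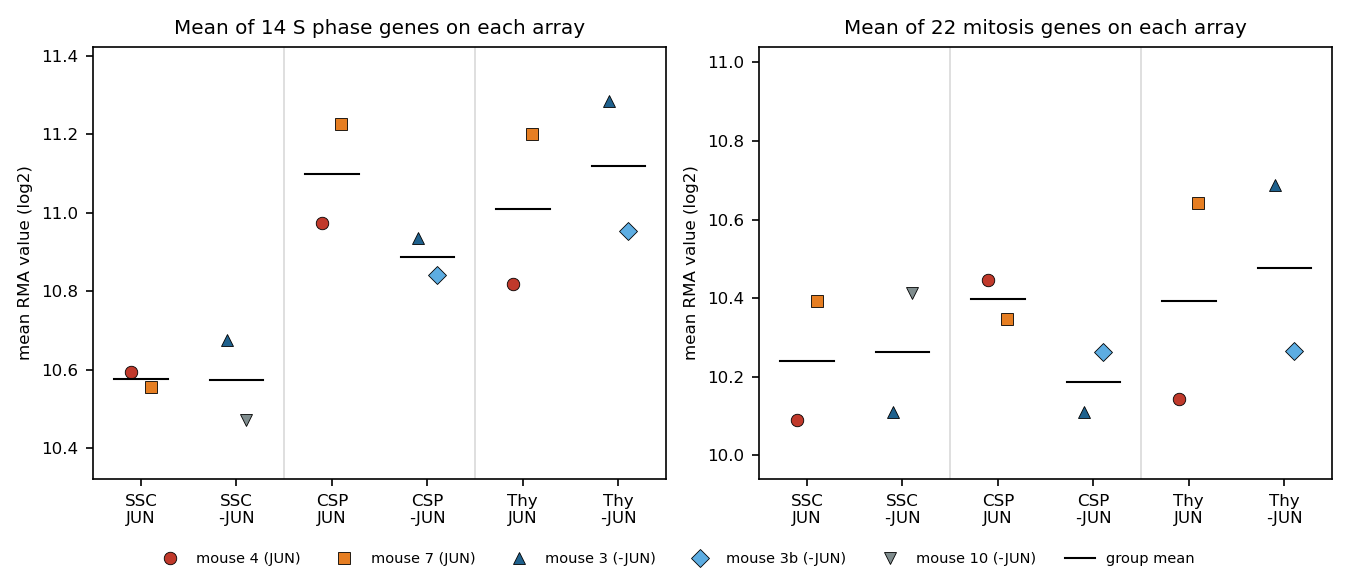
Mean RMA value (log2) of the 14 S phase genes (left) and of the 22 mitosis genes (right) on each of the 12 arrays, by population and arm, with the mouse as symbol and the mean of the 2 arrays as a line; the axes do not start at 0. The 4 SSC arrays lie between 10.47 and 10.68 for the S phase genes, below all CSP and Thy arrays (10.82 to 11.28), while the mitosis means of the 3 populations overlap.

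The S phase means were also compared between arrays whose titles carry the same mouse number, taken here as the same animal. Since every SSC array lay below every CSP and Thy array, the sign of each pair was fixed beforehand, and only its size is added. SSC minus CSP was -0.38 in mouse 4, -0.67 in mouse 7 and -0.26 in mouse 3. SSC minus Thy was -0.22 in mouse 4, -0.64 in mouse 7 and -0.61 in mouse 3. By member, 9 of the 13 S phase members tested were lower in SSC than in CSP in all 3 mice, as were 10.8% of all genes. Against Thy, 10 of the 13 were lower in SSC in all 3 mice, as were 23.1% of all genes. For the mitosis members the counts were 4 of 22 against CSP and 6 of 22 against Thy. Of the S phase members counted, 4 against CSP and 7 against Thy had all SSC arrays below all arrays of the other population. The same held for 2 of the mitosis members against Thy. For these members too the sign in each mouse was fixed beforehand. The titles of the SSC arrays of mice 3, 7 and 10 carry a date and the other 9 titles carry none. Both titles are thus undated only in the pairs of mouse 4. The labels do not settle that the dated and undated titles of mouse 7 or mouse 3 name one animal. Apart from the SSC array of mouse 4, SSC against the other populations is also dated against undated arrays, and these cannot be told apart.

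No S phase member passed the threshold between populations. In SSC minus CSP 12 of the 13 members tested were lower, as were 57.8% of all genes, with a median difference of -0.43, beside -0.05 over all genes. The limma test called 54 of 12516 genes (0.431%) and none of the 35 members, of which 4 had an unadjusted p under 0.05, as had 6.51% of all genes. All arrays of SSC lay below all arrays of CSP for 4 of the 13 S phase members and for 0 of the 22 mitosis members, as for 1.86% of all genes. In SSC minus Thy 11 of the 13 S phase members were lower, as were 57.7% of all genes, with a median of -0.56, beside -0.09 over all genes. There limma called 49 genes (0.391%) and none of the 35 members, of which 10 had an unadjusted p under 0.05, as had 17.7% of all genes, and the lowest adjusted p was 0.0904. All SSC arrays lay below all Thy arrays for 7 of the 13 S phase members and 2 of the 22 mitosis members, as for 5.18% of all genes.

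Among the helicase subunits, Mcm3 stood out on every pair of populations with SSC. Mcm3 had 11.89 and 11.98 in SSC JUN and 11.53 and 11.04 in SSC -JUN, against 12.29, 13.16, 12.27 and 11.98 in CSP and 12.99, 12.36, 12.71 and 12.12 in Thy. The 4 SSC arrays lay below all others, the highest SSC array only just so. The difference was -0.82 ± 0.25 for SSC minus CSP and -0.94 ± 0.25 for SSC minus Thy (SE, unadjusted p = 0.00696 and 0.00287, adjusted p = 0.385 and 0.121, limma). All 5 probe sets of Mcm3 that passed the filter had the same direction in both comparisons, but not the same size. They ranged from -0.82, the one used, to -0.25 in SSC minus CSP and from -0.96 to -0.525 in SSC minus Thy.

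Mcm6 and Mcm2 were lowest on the same arrays. Mcm6 had 11.01, 10.88, 11.22 and 11.17 in SSC, against 11.78, 11.42, 12.01 and 11.69 in CSP and 11.24, 11.29, 11.69 and 11.43 in Thy, with the JUN arrays first in each. No SSC array reached an array of the other populations, and the difference was -0.66 ± 0.17 for SSC minus CSP (unadjusted p = 0.00211, adjusted p = 0.208) and -0.34 ± 0.17 for SSC minus Thy (adjusted p = 0.308). Mcm2 had 10.68, 10.76, 10.62 and 9.88 in SSC, against 11.22, 11.02, 11.10 and 10.98 in CSP and 11.05, 11.70, 11.40 and 11.15 in Thy. Again the groups did not overlap, and the last SSC array, from mouse 10, lay far below the other 3. Mcm2 differed by -0.60 ± 0.22 in SSC minus CSP and by -0.84 ± 0.22 in SSC minus Thy (adjusted p = 0.605 and 0.116). Without that array the differences were -0.41 and -0.66.

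The other subunits split by population. Mcm7 and Mcm5 lay lower in SSC than in Thy on all arrays, by -0.56 ± 0.16 and -0.67 ± 0.27 (adjusted p = 0.141 and 0.233), while against CSP the differences were -0.33 ± 0.16 and -0.03 ± 0.27 with overlapping arrays. With the level of the poly-A controls in the model, SSC minus Thy was -0.20 for Mcm5. Mcm5 averaged 12.37 ± 0.08 in SSC and 12.39 ± 0.62 in CSP, against 13.04 ± 0.34 in Thy (SD, n = 4 each). Mcm4 was highest in CSP: it averaged 11.16 ± 0.72 in SSC, 11.99 ± 0.47 in CSP and 11.06 ± 1.10 in Thy. SSC minus CSP was -0.82 ± 0.38 (adjusted p = 0.773), CSP minus Thy 0.93 ± 0.38 (adjusted p = 0.363) and SSC minus Thy 0.11 ± 0.38, all with overlap. The 6 subunits of one complex thus did not share one order of the population means on these arrays.

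The factors that load and fire the helicase had wider spreads. Cdc6, the loading ATPase, had 7.61, 6.08, 7.66 and 6.88 in SSC, against 8.09, 8.22, 8.02 and 7.66 in CSP and 5.86, 8.0, 8.86 and 8.19 in Thy. It was above the median of its array on 6 of the 12 arrays, and on none of the 4 SSC arrays, so it passed the filter through CSP and Thy, where it was higher, and its lower level in SSC is no support for the counts above. SSC minus CSP was -0.94 ± 0.52 (adjusted p = 0.86). Without Cdc6, 11 of 12 S phase members were lower in SSC than in CSP and 10 of 12 lower than in Thy, 8 and 10 of them in all 3 mice. The S phase mean without it lay between 10.75 and 10.91 in SSC, against 11.09 to 11.46 in CSP and 11.17 to 11.47 in Thy. The GINS subunit gene Gins2 had 9.75, 10.40, 10.03 and 10.13 in SSC, against 10.78, 11.03, 10.66 and 10.58 in Thy, which did not overlap (-0.69 ± 0.22, adjusted p = 0.17). Cdc45 differed by -0.49 ± 0.27 in SSC minus CSP and -0.55 ± 0.27 in SSC minus Thy, with overlap.

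Genes of nucleotide supply and the clamp differed by smaller amounts. Rrm2, the small subunit of ribonucleotide reductase, had 11.32, 11.62, 11.37 and 11.57 in SSC, against 11.79, 11.91, 11.74 and 11.73 in CSP and 11.66, 11.98, 12.23 and 11.64 in Thy. All SSC arrays were the lowest, but the differences were -0.32 ± 0.19 and -0.41 ± 0.19 (adjusted p = 0.875 and 0.284). Rrm1, the large subunit, differed by -0.20 ± 0.18 from CSP and by -0.41 ± 0.18 from Thy. Against CSP the second probe set of Rrm1 had the opposite sign at 0.57, and 1 of the 3 probe sets of Rrm2 was at 0.02. Pcna lay between 12.77 and 13.65 over all 12 arrays, and its differences were -0.03 ± 0.20 for SSC minus CSP and 0.09 ± 0.20 for SSC minus Thy. Uhrf1, which reads hemimethylated DNA behind the fork, averaged 11.09 ± 0.53 in SSC and 11.05 ± 0.67 in CSP, against 11.75 ± 0.21 in Thy (SD, n = 4 each), with differences from Thy of -0.66 ± 0.25 and -0.70 ± 0.25 (adjusted p = 0.22 and 0.293), which became -0.0081 and -0.46 with the level of the poly-A controls in the model. Tyms, which was not tested, lay between 7.12 and 7.76 and was above the array median on 1 array.

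**Figure D2:**
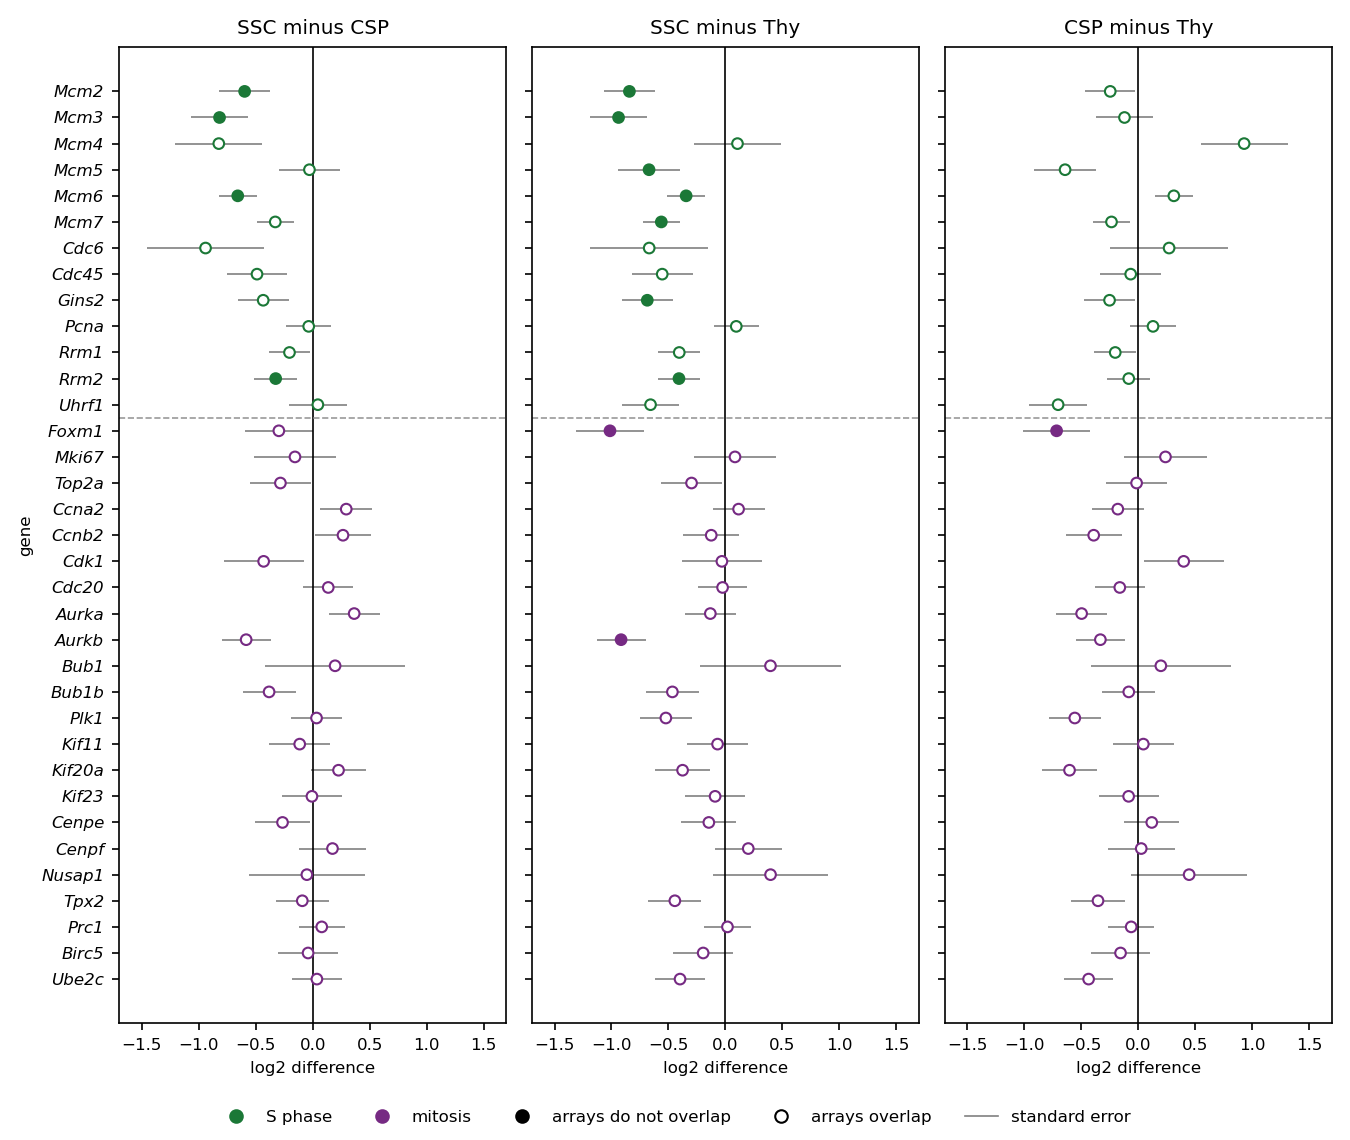
Differences between populations in log2 units, with standard errors of the limma fit, for the 13 S phase members (green, above the dashed line) and the 22 mitosis members (purple, below it); filled points have no overlap between the 4 arrays of one population and the 4 of the other. In SSC minus CSP 12 of 13 and in SSC minus Thy 11 of 13 S phase points lie left of 0, while 12 and 16 of the 22 mitosis points do.

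Of the mitosis genes, the regulators and the chromosomal passenger kinase differed most between SSC and Thy. In SSC minus Thy 16 of 22 members were lower with a median of -0.13, and in SSC minus CSP 12 of 22 with a median of -0.02, beside 57.7% and 57.8% of all genes lower. Foxm1, the transcription factor of the G2 programme, had 10.30 and 10.28 in SSC JUN and 9.24 and 8.40 in SSC -JUN, against 10.67, 10.43, 10.50 and 10.68 in Thy. The populations did not overlap, and within SSC the -JUN arrays were the low ones. The difference of SSC minus Thy was -1.01 ± 0.30 (unadjusted p = 0.00507, adjusted p = 0.144), but -0.50 with the poly-A level in the model, -0.67 with the mouse as a block and -0.63 for the mean of its probe sets. Aurkb, the kinase of the chromosomal passenger complex, had 9.67, 9.19, 9.02 and 8.60 in SSC, against 9.68, 10.25, 9.66 and 9.23 in CSP and 10.01, 10.34, 9.98 and 9.82 in Thy. It was lower in SSC than in Thy on all arrays, by -0.92 ± 0.22 (unadjusted p = 0.00111, adjusted p = 0.0904), and lower than in CSP with overlap (-0.58 ± 0.22, adjusted p = 0.602). Both probe sets of Aurkb had the same direction, and over 24 alternatives the adjusted p against Thy ranged from 0.041, without the SSC array of mouse 4, to 0.905, with the poly-A level in the model.

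Plk1, the polo kinase of mitotic entry, averaged 9.65 ± 0.42 in SSC and 9.61 ± 0.33 in CSP, against 10.17 ± 0.28 in Thy, with overlap (-0.52 ± 0.23 and -0.56 ± 0.23, adjusted p = 0.26 and 0.36). The direction of SSC minus Thy for Plk1 turned to 0.02 when the level of the poly-A controls was added to the model. Cdk1 and its partner cyclins did not follow one order on the probe sets used: SSC minus CSP was -0.43 ± 0.35 for Cdk1, 0.29 ± 0.23 for Ccna2 and 0.27 ± 0.25 for Ccnb2. The second probe set of Ccna2 had the opposite sign at -0.43. The kinetochore and checkpoint genes were as mixed, with -0.26 ± 0.24 for Cenpe, 0.17 ± 0.29 for Cenpf and -0.38 ± 0.23 for Bub1b in the same comparison. The second probe set of Cenpe was at 0.08. Mki67, the widely used proliferation marker, averaged 10.93 ± 0.82 in SSC, 11.08 ± 0.42 in CSP and 10.84 ± 0.44 in Thy. Those means differ by less than the spread inside each population.

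CSP and Thy differed in single genes of both sets. In CSP minus Thy limma called 124 of 12516 genes (0.991%) and no member, and 7 of the 35 members had an unadjusted p under 0.05, as had 12% of all genes. In it 9 of 13 S phase and 15 of 22 mitosis members were lower, as were 54.6% of all genes. Of these 7, 3 were S phase genes, Mcm4 and Uhrf1 as given above and Mcm5 (-0.64 ± 0.27, adjusted p = 0.377). The medians were -0.12 for the S phase and -0.12 for the mitosis members, beside -0.04 over all genes. Foxm1 had 10.13, 10.07, 9.71 and 9.51 in CSP, all below the Thy arrays (-0.72 ± 0.30, adjusted p = 0.367), as was so for 4.29% of all genes. Kif20a, a kinesin of the central spindle, differed by -0.60 ± 0.24 and Aurka, the kinase of the spindle poles, by -0.50 ± 0.22, both with overlap (adjusted p = 0.36 and 0.417). In all 4 mice with both populations, 6 of 22 mitosis members and 1 of 13 S phase members were lower in CSP, as were 11.6% of all genes.

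Marker lists of other cell types and the poly-A controls also differed between the populations on the same arrays, some with overlap. The summed level of the endothelial list, given as its mean over 8 genes, lay between 7.11 and 7.64 in SSC, against 7.92 to 8.77 in CSP and 7.33 to 8.27 in Thy, and none of the 8 was below the array median on all 12 arrays. The neutrophil list of 5 genes lay between 6.65 and 7.30 in SSC, against 7.13 to 8.25 in CSP and 7.58 to 8.27 in Thy, and none of the 5 was below the median throughout. The Schwann cell list of 4 genes lay between 11.41 and 11.83 in SSC, against 9.58 to 9.95 in CSP and 10.03 to 11.98 in Thy, and 2 of its genes passed in SSC minus CSP. The chondrocyte list lay between 9.39 and 12.54 in SSC, against 9.13 to 12.29 in CSP and 8.26 to 9.18 in Thy. The osteoblast list lay between 11.05 and 12.66 in SSC, against 9.33 to 11.50 in CSP and 9.88 to 10.88 in Thy. The pericyte and smooth muscle list lay between 10.93 and 11.90 in SSC, against 10.60 to 11.06 in CSP and 11.76 to 12.45 in Thy, and 1 of its 7 genes passed in SSC minus Thy. On all arrays the endothelial and Schwann lists separated SSC from CSP, and the neutrophil, chondrocyte and osteoblast lists separated SSC from Thy. The part of these cells in the S phase difference was not tested. Of the erythroid list 6 of 8 genes with a probe set, among them Alas2, Klf1 and Gata1, were below the median on all 12 arrays, and of the leukocyte list 7 of 12, among them Ptprc. The poly-A control probe sets, added to the RNA before labelling, averaged 8.08 to 10.54 on SSC arrays, against 9.38 to 11.04 on CSP and 10.63 to 11.52 on Thy arrays. On this level no SSC array reached a Thy array, so with it in the model SSC minus Thy rests on extrapolation. Under that model the S phase mean differed by -0.42 in SSC minus CSP and by -0.48 in SSC minus Thy. The S phase members with an unadjusted p under 0.05 then numbered 4 in SSC minus CSP, against 3 without it, and 2 in SSC minus Thy, against 7 without it. By gene, SSC minus Thy became -1.06 for Mcm2, -1.15 for Gins2, -0.55 for Mcm3, -0.20 for Mcm5 and -0.0081 for Uhrf1.

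**Figure D3:**
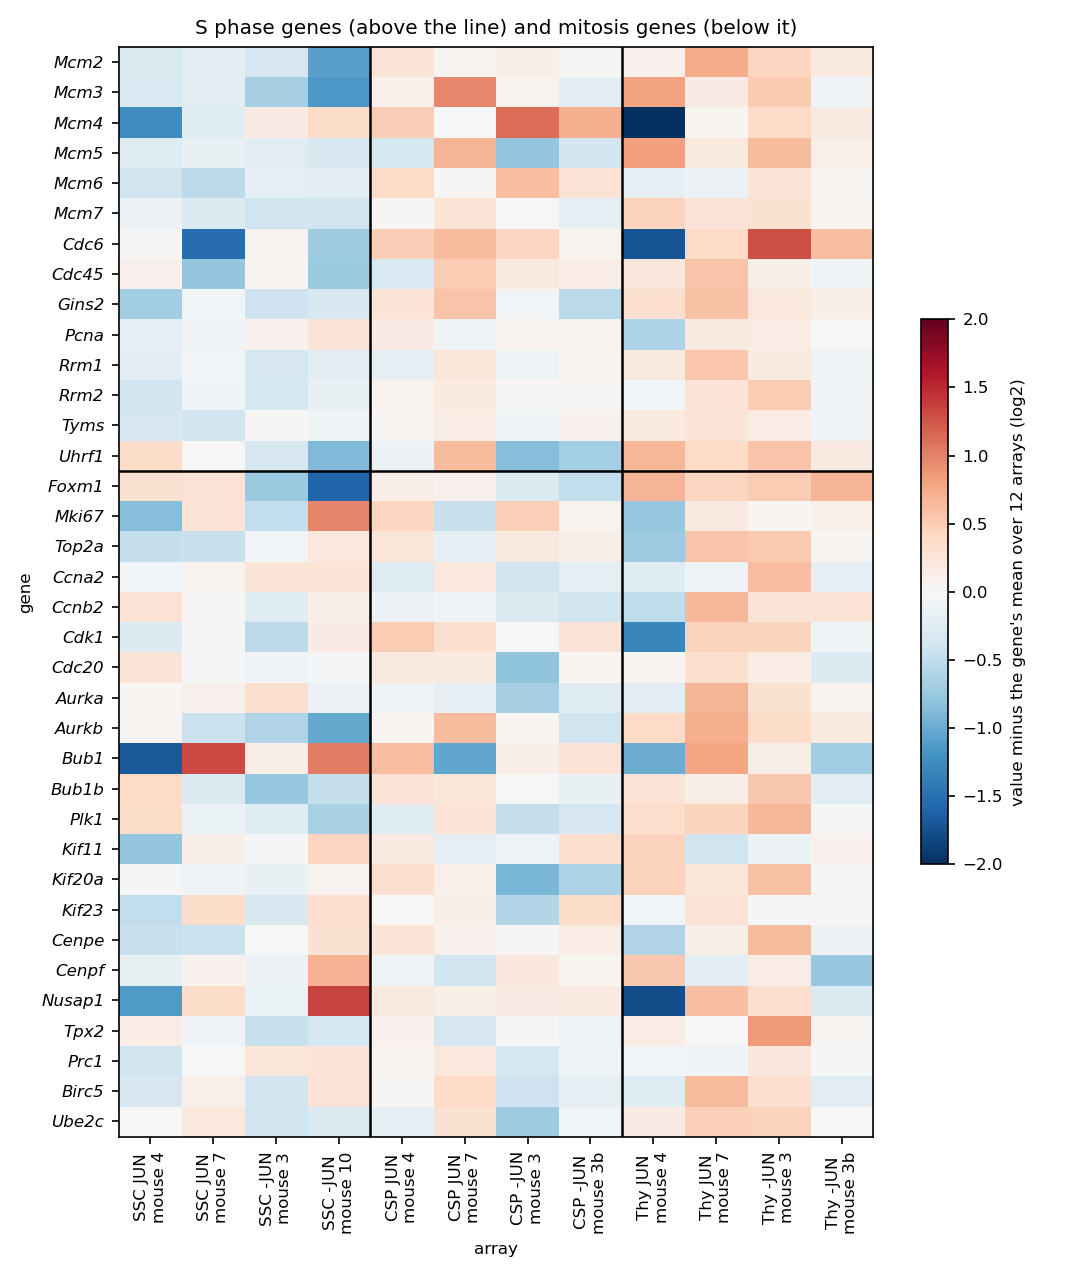
Heat map of the 36 measured genes (rows, S phase above the black line, mitosis below) on the 12 arrays (columns, by population, arm and mouse); colour gives the RMA value minus the mean of the gene over the 12 arrays, in log2 units, red above and blue below. Blue prevails for the Mcm genes on the 4 SSC arrays, and the Thy JUN array of mouse 4 holds dark blue cells for Mcm4 (9.41), Cdc6 (5.86) and Nusap1 (8.69).

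No member passed the test between the JUN and the -JUN arms. In each of the 3 populations, in their mean and in the interaction, limma called 0 of 12516 genes (0.0%). At an unadjusted p under 0.05 there were 2 of the 35 members in SSC, where 6.5% of all genes had one, 3 in CSP (2.3% of all genes) and 1 in Thy (3.04% of all genes). In the mean of the populations there were 5 (12.5% of all genes), and in the interaction 1 (1.15% of all genes). With 2 arrays against 2 the standard error of a member ranged from about 0.27 for Mcm7 to 0.93 for Bub1.

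In SSC the S phase mean was 10.58 ± 0.03 with JUN and 10.57 ± 0.14 without (SD, n = 2 each), and the mitosis mean was 10.24 ± 0.21 with JUN and 10.26 ± 0.22 without. Members went both ways: the 2 arrays of JUN lay above the 2 of -JUN for 4 of 13 S phase and 7 of 22 mitosis members, as for 22.7% of all genes, and below them for 3 and 4, as for 15.7%. Foxm1, with the SSC values given above, stood 1.47 ± 0.32 higher with JUN (unadjusted p = 0.000943, adjusted p = 0.69), and its 3 probe sets ranged from 0.63 to 1.47. Uhrf1 had 11.67 and 11.31 in SSC JUN, against 10.98 and 10.42 in SSC -JUN (0.79 ± 0.35, adjusted p = 0.69), but its second probe set differed by 0.05, and with the poly-A level in the model the first was at 0.35. In SSC that level was 10.54 and 9.39 with JUN, against 8.08 and 8.65 without. The arms did not overlap in it, so values of that model for JUN in SSC rest on extrapolation. Bub1b, Aurkb and Plk1 stood 0.67 ± 0.34, 0.62 ± 0.34 and 0.57 ± 0.34 higher without overlap, while Mcm4, Cenpe and Top2a stood at -1.01 ± 0.58, -0.60 ± 0.35 and -0.53 ± 0.41 without overlap.

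In CSP 9 of 13 S phase and 15 of 22 mitosis members were higher with JUN, as were 57.0% of all genes. In SSC the counts were 8 and 9, beside 56.3% of all genes, and in Thy 8 and 12, beside 53.6%. Its S phase mean was 11.10 ± 0.18 with JUN and 10.89 ± 0.07 without, and its mitosis mean was 10.40 ± 0.07 with JUN and 10.19 ± 0.11 without (SD, n = 2 each). The JUN arrays lay above the -JUN arrays for 7 of 13 S phase and 11 of 22 mitosis members, as for 19.3% of all genes, and below for 1 and 1, as for 11.9%. The members' median differences were 0.11 and 0.28, beside 0.07 over all genes, and every member was measured on the same 4 arrays. Leaving out 1 array or mouse at a time kept the mitosis median between 0.13 and 0.34. On the same 4 arrays the neutrophil list mean was 7.88 to 8.25 with JUN and 7.13 to 7.45 without, the leukocyte list mean 7.02 to 7.11 with JUN and 6.56 to 6.90 without, the skeletal muscle list mean 8.45 to 9.12 with JUN and 8.09 to 8.18 without, and the poly-A controls 10.63 to 11.04 with JUN and 9.38 to 10.18 without. With the poly-A level in the model 11 of 13 S phase and 18 of 22 mitosis members were higher, with medians of 0.30 and 0.31. That level did not overlap between the arms in CSP, as in SSC, so these values rest on extrapolation. In SSC the neutrophil list also separated the arms, at 6.98 to 7.30 with JUN and 6.65 to 6.77 without. So did the leukocyte list there, at 6.57 to 6.86 and 6.45 to 6.51. In Thy the neutrophil list did so at 8.07 to 8.27 and 7.58 to 7.91. The muscle list there had 8.66 to 8.69 with JUN and 7.88 to 8.30 without. The leukocyte list overlapped between the arms in Thy, and the muscle list in SSC. The part of neutrophils, other leukocytes and muscle was not tested.

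Kif20a, which carries the passenger complex to the central spindle, had 11.34 and 11.12 in CSP JUN, against 10.10 and 10.39 in CSP -JUN (0.98 ± 0.30, unadjusted p = 0.0078, adjusted p = 0.995). Uhrf1 had 11.18 and 11.93 in CSP JUN, against 10.45 and 10.62 in CSP -JUN (1.02 ± 0.35, adjusted p = 0.995), and its second probe set had the opposite sign at -0.21. Gins2 had 10.72 and 11.01 in CSP JUN, against 10.39 and 9.91 in CSP -JUN (0.72 ± 0.32, adjusted p = 0.995). The groups of these 3 genes did not overlap. Cdc20, the activator of the anaphase promoting complex, and Birc5, the survivin subunit of the passenger complex, stood 0.56 ± 0.34 and 0.51 ± 0.39 higher without overlap.

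In Thy the direction of both means depended on which JUN array was used. The S phase mean was 11.01 ± 0.27 with JUN and 11.12 ± 0.23 without, and the mitosis mean 10.39 ± 0.35 with JUN and 10.48 ± 0.30 without (SD, n = 2 each). Without Cdc6 the S phase difference was 0.0043. Without the array of mouse 4 the differences were 0.08 and 0.16, and without the array of mouse 7 they were -0.30 and -0.33. The JUN arrays lay above the -JUN arrays for 3 of 13 S phase and 1 of 22 mitosis members, as for 17.9% of all genes, and below for 3 and 1, as for 10.8%. The array of mouse 4 held the lowest of the 12 values for 3 of 13 S phase members and 5 of 22 mitosis members, as for 19.9% of all genes. Cdc6 had 5.86 and 8.0 in Thy JUN, against 8.86 and 8.19 in Thy -JUN (-1.59 ± 0.68, adjusted p = 0.985), and the array of mouse 4 was the low one.

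The arms did not overlap, in the same direction in all 3 populations, for 2 members: Mcm4 with JUN lower, as for 0.887% of all genes, and Aurkb with JUN higher, as for 2.84% of all genes. Mcm4 had 10.16 and 11.16 in SSC JUN, against 11.56 and 11.77 in SSC -JUN. In CSP it had 11.90 and 11.40 with JUN, against 12.53 and 12.12 without. In Thy it had 9.41 and 11.45 with JUN, against 11.78 and 11.59 without. In each population the array of one mouse set most of the difference, mouse 4 in SSC and Thy and mouse 7 in CSP. The mean difference of the 3 populations was -0.98 ± 0.33 (unadjusted p = 0.0146, adjusted p = 0.396), both probe sets of Mcm4 were lower in every population, and without mouse 7, which leaves mouse 4 as the only JUN animal, the mean difference was -1.40 (adjusted p = 0.0286). With the poly-A level in the model it was -0.11 (adjusted p = 0.9999). For Aurkb the mean difference was 0.47 ± 0.19 (unadjusted p = 0.0348, adjusted p = 0.396). All JUN arrays came from 2 mice, so arrays of the 3 populations are not independent, and p-values of the mean difference may be too low.

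There were 3 other members with an unadjusted p under 0.05 for the mean of the populations: Uhrf1 at 0.66 ± 0.20, Foxm1 at 0.64 ± 0.19 and Mcm3 at 0.50 ± 0.22 (adjusted p = 0.396 each). For the mean of a gene's probe sets Uhrf1 was at 0.32 and Foxm1 at 0.31, and with the poly-A level in the model Uhrf1 was at 0.40. The Foxm1 difference was 1.47 in SSC, 0.49 ± 0.32 in CSP and -0.04 ± 0.32 in Thy. Whether it differed between populations was tested by the interaction, with an unadjusted p of 0.0219 and an adjusted p of 0.9997. The median difference over the 13 S phase members was 0.17 and over the 22 mitosis members 0.03, beside 0.07 over all genes.

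**Figure D4:**
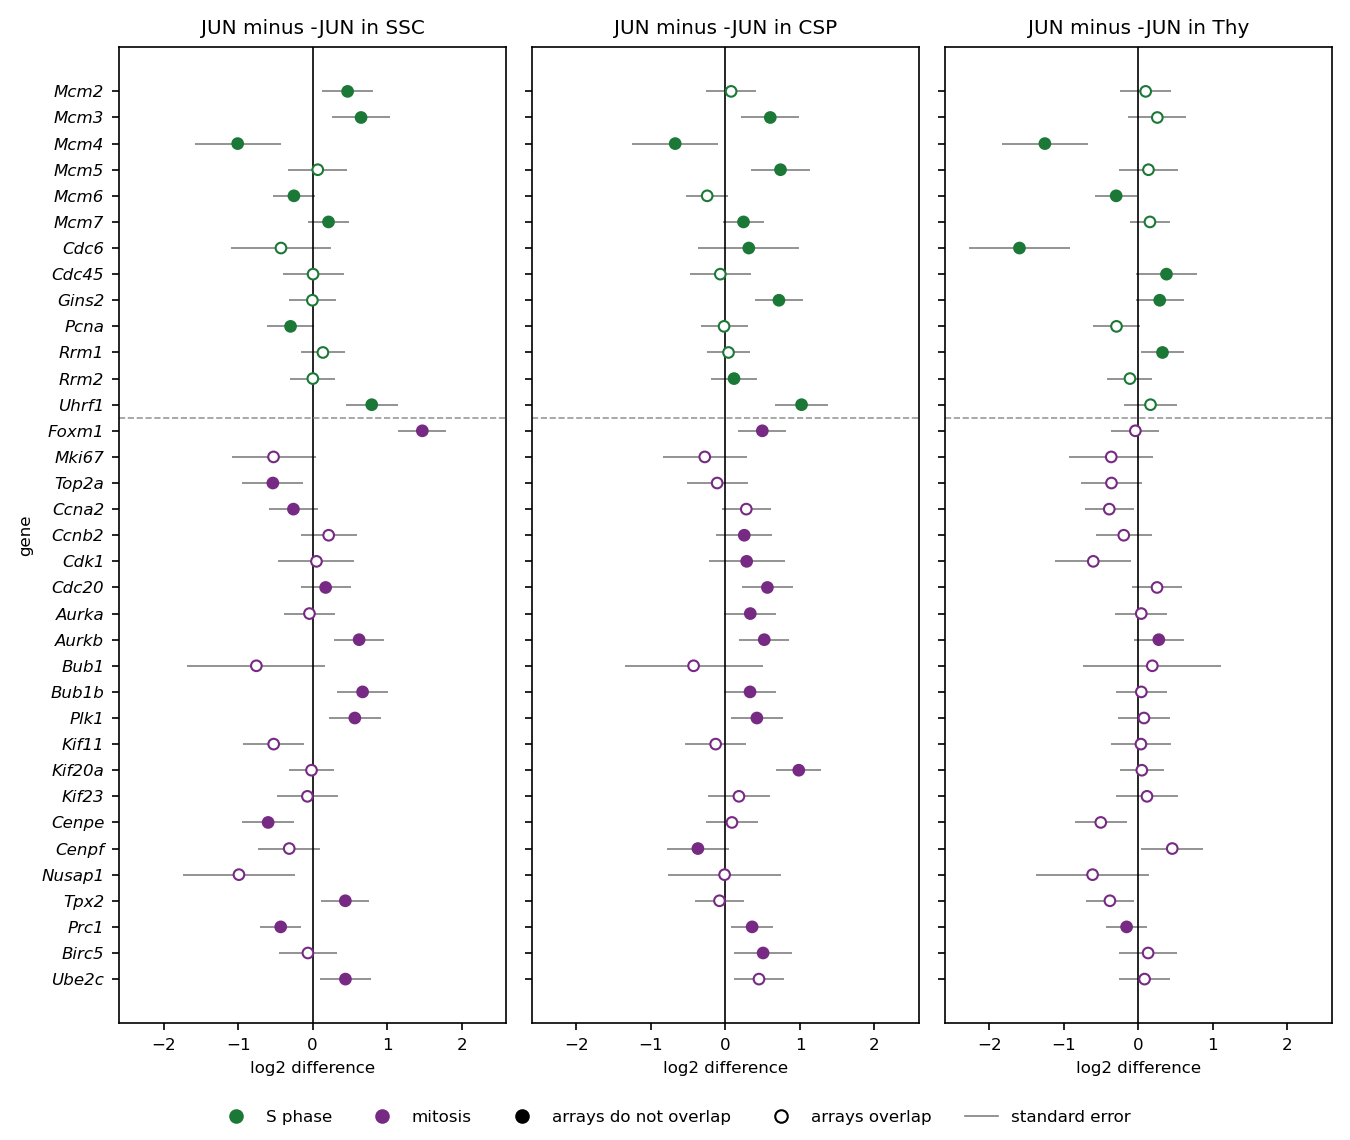
Differences of JUN minus -JUN in log2 units with standard errors of the limma fit in SSC, CSP and Thy for the 13 S phase members (green) and the 22 mitosis members (purple); filled points have no overlap between the 2 JUN and the 2 -JUN arrays. In CSP 7 S phase and 11 mitosis points are filled on the right of 0, and in Thy the points of Cdc6 (-1.59) and Mcm4 (-1.25) lie farthest left.

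**Figure D5:**
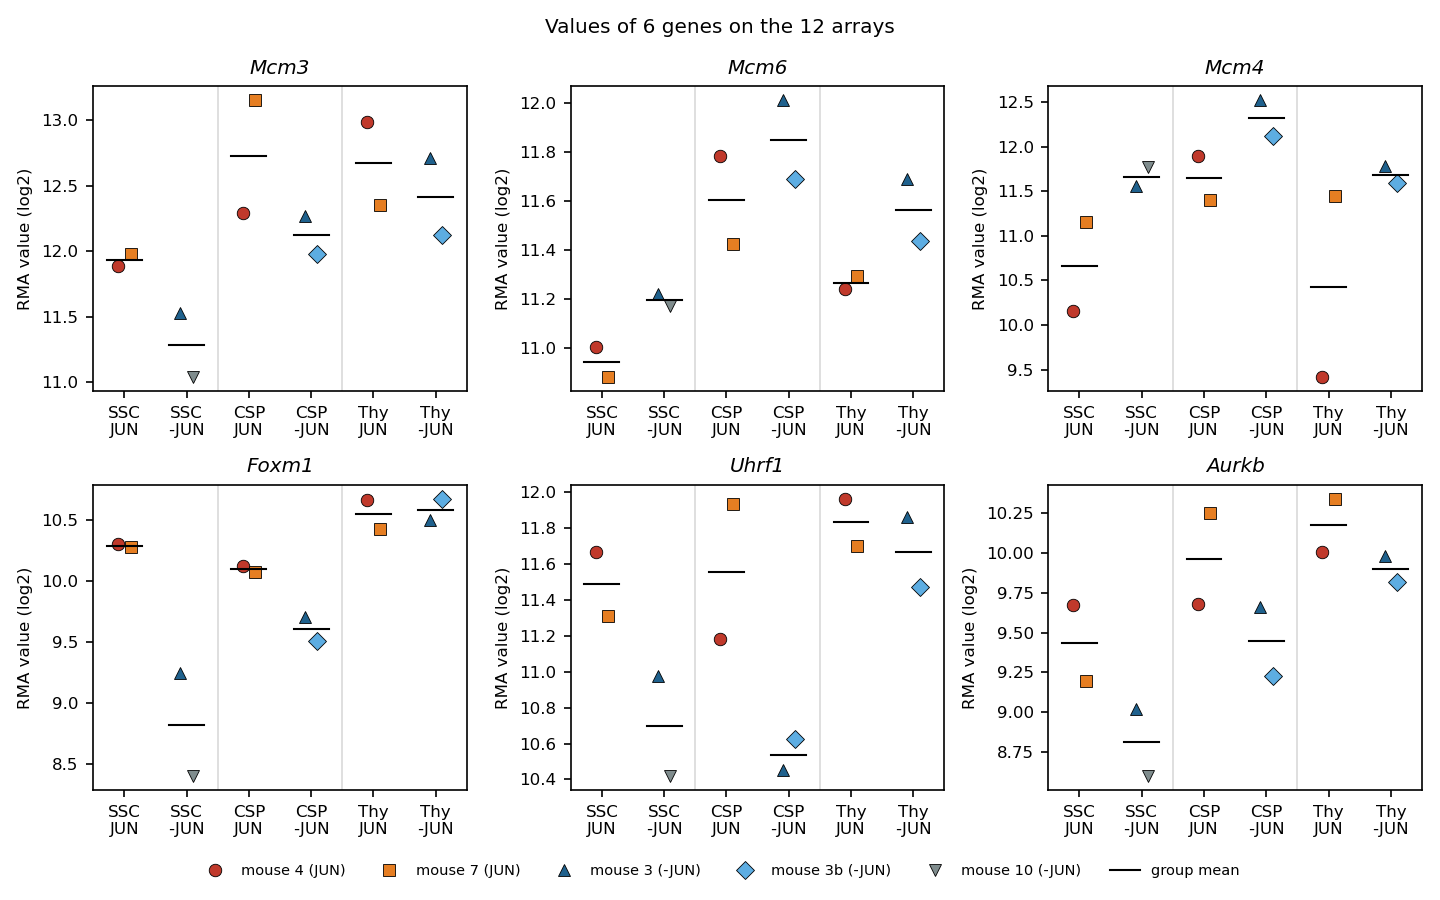
RMA values (log2) of Mcm3, Mcm6, Mcm4, Foxm1, Uhrf1 and Aurkb on the 12 arrays by population and arm, with the mouse as symbol and the mean of 2 arrays as a line; each panel has its own axis, which does not start at 0. Mcm3 and Mcm6 are lowest on the SSC arrays, Mcm4 is lower with JUN in each population, and Foxm1 is lowest on the SSC -JUN arrays (9.24 and 8.40).

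Genes of replication and mitosis outside the 38 were read from lists of the same pathways. Of 36 other replication genes tested, 24 were lower in SSC than in CSP with a median of -0.05, beside 57.8% of all genes lower. Against Thy 17 were lower with a median of 0.02, beside 57.7% of all genes lower, and none passed. Their medians thus stayed near those of all genes, unlike the S phase members. Pola2, a subunit of the primase polymerase, had 9.85, 9.55, 9.69 and 8.95 in SSC, against 10.78, 10.65, 10.53 and 10.53 in Thy, without overlap (-1.11 ± 0.23, unadjusted p = 0.000367, adjusted p = 0.0604). Timeless and the thymidine kinase gene Tk1 also lay below all Thy arrays (-0.96 ± 0.28 and -0.58 ± 0.22, adjusted p = 0.142 and 0.22). This was so for 3 of the 36 genes, beside 5.18% of all genes. Of 41 other mitosis genes tested, 31 were lower in SSC than in CSP and 31 were lower than in Thy, beside 57.8% and 57.7% of all genes. Their medians were -0.08 and -0.24, and none passed. The condensin gene Ncapd2 (-1.01 ± 0.24, adjusted p = 0.0904), the kinesin gene Kif22 (-0.77 ± 0.21, adjusted p = 0.125) and the separase gene Espl1 (-1.05 ± 0.31, adjusted p = 0.144) had the lowest p against Thy, but with the poly-A level in the model Ncapd2 was at -0.15, Kif22 at -0.30, Timeless at -0.19 and Espl1 at 0.13.

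Upstream of S phase, one gene of the G1 list passed. Ccnd1, which encodes cyclin D1, the partner of Cdk4 and Cdk6 in G1, had 10.63, 10.93, 10.58 and 10.91 in CSP, against 11.50, 11.62, 11.84 and 11.63 in Thy, and fell by 0.89 in CSP relative to Thy (SE 0.19, adjusted p = 0.0468). With the mouse as a block the adjusted p was 0.104, and over 24 alternatives, of which 20 lost the call, it ranged from 0.0383 to 0.484. In SSC it had 11.85, 11.42, 11.41 and 11.74, higher than all CSP arrays (0.85 ± 0.19, adjusted p = 0.1). Of the 10 genes of the G1 list none other passed in a population comparison. Among 12 cell cycle inhibitors none passed: Cdkn2b, which encodes the Cdk4 and Cdk6 inhibitor p15, had 9.09, 7.66, 8.42 and 8.22 in SSC, against 7.65, 6.73, 6.70 and 6.70 in Thy (1.40 ± 0.43, adjusted p = 0.157), and it was above the array median on 4 of the 12 arrays, none of them Thy. Among 18 genes of the E2F, RB and DREAM list none passed, and E2f1 and Mybl2 differed by -0.71 ± 0.29 and -0.78 ± 0.31 in SSC minus Thy with overlap (adjusted p = 0.233 and 0.232), E2f1 by -0.0237 with the poly-A level in the model.

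With JUN, none of these lists held a gene that passed. In CSP 24 of 36 other replication and 27 of 41 other mitosis genes were higher, with medians of 0.16 and 0.24, beside 57.0% of all genes higher. In Thy 13 and 15 were, with medians of -0.18 and -0.12, beside 53.6% of all genes higher. The Thy JUN array of mouse 4 held the lowest of the 12 values for 14 of the 36 replication genes, beside 19.9% of all genes. Among the 12 inhibitors, 2 were higher with JUN in Thy, beside 53.6% of all genes. The lowest p among the other replication genes belonged to Cdc7, the kinase that fires licensed origins, at -1.01 ± 0.27 for the mean of the populations (unadjusted p = 0.00327, adjusted p = 0.396). Cdc7 had 8.48 and 8.13 in SSC JUN, against 9.63 and 9.75 in SSC -JUN. In CSP it had 9.40 and 8.49 with JUN, against 10.33 and 9.05 without, which overlapped. In Thy it had 8.10 and 8.77 with JUN, against 9.38 and 9.27 without. The checkpoint kinase gene Chek1 stood at -0.80 ± 0.29, the spindle checkpoint kinase gene Ttk at -0.80 ± 0.27 and the mitotic phosphatase gene Cdc25c at 0.86 ± 0.24 (adjusted p = 0.396 each). With the poly-A level in the model Cdc7 was at -0.62, Chek1 at -0.19 and Cdc25c at 0.36. In SSC, Cdkn1a, which encodes the inhibitor p21, had 13.70 and 11.87 with JUN, against 11.91 and 11.48 without, which overlapped.

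The genes tested whose values over the 12 arrays were most like the S phase mean by Pearson's r were Cpsf3 (0.945), Rnft2 (0.925), Fam217b (0.925), Maged2 (0.894) and the endothelial receptor gene Tie1 (0.883), and the replication genes Tk1 (0.874) and Rpa2 (0.853) were among the first 10. For the mitosis mean they were Il13ra1 (0.926), Eola1 (0.896), Cops4 (0.886) and Atp5pb (0.876), with the kinetochore gene Ndc80 at 0.852. These are descriptions over 12 arrays that share animals and groups.

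Several genes were measured by more than 1 probe set that passed the filter. In SSC minus Thy the probe sets had one direction for 11 of 11 such S phase members and for 8 of 12 such mitosis members. In SSC minus CSP the counts were 8 of 11 and 5 of 12. For JUN in SSC they were 5 of 11 and 11 of 12, and for JUN in CSP 7 of 11 and 10 of 12. For JUN in Thy they were 9 of 11 and 10 of 12, and for the mean of the populations 7 of 11 and 11 of 12. In CSP minus Thy they were 8 of 11 and 5 of 12. The share was thus highest for the S phase members in SSC minus Thy. The share over all genes with several probe sets was not counted, so these counts only describe the members.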

How the data were processed

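The deposited table holds 1 log2 expression value per probe set and array, computed by the authors with RMA according to the submitters' processing notes. Its version, settings and array scans were not given in the sources used here. Of 45101 probe sets 64 controls were left out, and 34945 had 1 gene symbol, 932 several and 9160 none in the platform annotation. A probe set was kept when above its array's median on at least 2 arrays (23034 with 1 symbol), and a gene was read from its highest-mean probe set, which left 12516 of 18193 genes. RMA gives the arrays a common distribution, which hides a change of total RNA, and compresses dim values. The number of arrays limits the precision.

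Differences were fitted with limma 3.58.1 in R 4.3.3 (lmFit, eBayes, two-sided, Benjamini-Hochberg): JUN effects in a model of the 6 group means (6 residual degrees of freedom), populations in a model of population and arm (8). The fit was tested on simulated data. The mouse pairs arrays across populations, since titles give the same animal number; titles of mice 3 and 7 are dated only for SSC. Residuals of the same mouse correlated between -0.333 and 0.406. The p-values cover no more than the spread among these arrays. Probe sets ending in x_at or s_at, such as those of Mcm4, Mcm6 and Mcm3, can share probes with other transcripts. Named genes were all members, up to 4 genes of lowest p per other list and comparison, and for likeness the 10 genes of highest r. The members and lists were chosen with earlier results of these data known.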

Additional observations from a re-analysis of the deposited data

Results flagged for a closer look

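Within each population of 4 arrays, the gap of the highest or lowest array to the nearest other, divided by the range, exceeded Dixon's critical value for 4 samples for 7 of 114 groups of values checked, and chance alone flags about 1 group in 20. Mcm4 was low on the Thy JUN array of mouse 4 (9.41, the nearest array at 11.45), as was Mki67 (10.19, the nearest at 10.99). On the Thy -JUN array of mouse 3, Ccna2 (12.43) and Prc1 (11.13) were high. Mcm2 was low on the SSC -JUN array of mouse 10 (9.88, the nearest at 10.62). Cdc20 was high on the SSC JUN array of mouse 4 (11.20) and low on the CSP -JUN array of mouse 3 (10.12). The cause of these values was not tested.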

How the results depend on the processing

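The alternatives were no filter, the mean of a gene's probe sets, arrays centred on their median, a variance trend, the poly-A level as a covariate, a replicate block, only the arrays compared, the mouse as a random block or as 1 value, and leaving out each array or mouse; the poly-A level and the mouse block for the list means, and the means over filtered genes or without Cdc6, were added after seeing the data. None of these brought a member past the threshold except leaving out mouse 7, which gave Cdc6 (-2.66, adjusted p = 0.0414) and Mcm4 (-2.27, adjusted p = 0.0376) for JUN in Thy and Mcm4 (-1.40, adjusted p = 0.0286) for the mean of the populations, and leaving out the SSC JUN array of mouse 4, which gave Aurkb (-1.03, adjusted p = 0.041) in SSC minus Thy. So members called ranged from 0 to 2 in Thy, from 0 to 1 in the mean and from 0 to 1 in SSC minus Thy. The S phase mean kept SSC lowest in all alternatives. When 1 array or mouse was left out it ranged from -0.48 to -0.34 in SSC minus CSP and from -0.59 to -0.40 in SSC minus Thy. As all SSC arrays lay below all others on this mean, leaving out arrays could hardly change that order. For JUN in Thy the list means ranged from -0.30 to 0.0805 (S phase) and from -0.33 to 0.16 (mitosis).

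Genes called over the whole table moved more. In SSC minus CSP, 54 became 8 with the mouse as a replicate block and 7 to 62 when 1 array or mouse was left out. In SSC minus Thy, 49 became 24 with no filter, 75 with the mean of probe sets, 74 with centred arrays, 0 with the poly-A covariate (780 at an unadjusted p under 0.05, limma), 4 with the replicate block, 16 with only both populations' arrays and 3 to 304 when 1 was left out. In CSP minus Thy, 124 became 46 with the poly-A covariate and 17 to 155 when 1 was left out. For JUN the 0 genes became up to 282 in SSC, 2 in CSP, 175 in Thy and 495 in the mean, the 3 larger counts without mouse 7. The cause was not tested. Signs turned for Plk1 (0.0196) and Espl1 (0.13) in SSC minus Thy and for Cdkn1a in SSC JUN minus -JUN (-0.19) with the poly-A covariate, and for Jun when 1 array or mouse was left out (-0.20 to 0.85 in SSC and -0.69 to 0.15 in Thy). With the poly-A covariate, SSC minus Thy and JUN in SSC rest on extrapolation, as given above. Across arms the replicate numbers mark different animals, and arrays of the same number did not deviate together (r = -0.103 in CSP and -0.18 in Thy). The replicate block by number left JUN at 0 genes called in each population. With 2 arrays a group, small differences could not be detected.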
